A study of Homo sapiens with 6 samples.

Results

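The genes described here encode 10 receptors through which haematopoietic growth factors act on blood cells: CSF1R, CSF2RA, CSF2RB, CSF3R, FLT3, KIT, IL3RA, IL6R, IL6ST and IL7R. They were chosen by name as the receptors for CSF1, GM-CSF, G-CSF, IL3, IL6, IL7, FLT3 ligand and stem cell factor. The list of names uses no measured value, but it was drawn up with earlier results of these data known. Of the 10, 9 had enough counts to be tested among 14497 genes. Polyadenylated RNA had been sequenced from THP1, an MLL-rearranged human monocytic line of leukaemic origin. The 6 libraries carry 3 labels, with 2 libraries each. The genotype is given as ALKBH5 rescue for the group titled A5-res, as ALKBH5 knock-down for the group titled shA5 (written shALKBH5 here) and as wild-type for the group titled shCtrl. ALKBH5 is the enzyme that removes N6-methyladenosine from RNA. All were the same line in the same serum-containing medium. The labels give neither the construct that lowered ALKBH5, the one that restored it nor whether replicates were separate cultures, so p-values measure library-to-library spread alone, and that may be technical.

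Growth factor receptors fall into 2 structural families. CSF1R, FLT3 and KIT are receptor tyrosine kinases, whose own intracellular domain phosphorylates substrates once ligand has paired 2 receptor molecules. The others belong to the cytokine receptor superfamily, have no kinase of their own and signal through bound JAK kinases and STAT transcription factors. CSF2RA and IL3RA give specificity for GM-CSF and IL3 and share the signalling chain CSF2RB, and IL6R likewise binds IL6 and recruits the signalling chain IL6ST, also called gp130. In the monocyte lineage CSF1R supports survival and differentiation, while KIT and FLT3 mark earlier progenitors.

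Library depth ran from 14534386 to 24857373 estimated counts. The targeted gene did not follow the labels. ALKBH5 stood at 968, 1003 and 1097 CPM (counts scaled by library size) in the libraries numbered 2 and labelled ALKBH5 rescue, shALKBH5 and shCtrl, against 13.6, 12.4 and 14.6 CPM in the libraries numbered 1 and labelled in the same order. Each direction along the labels given below is therefore that of the libraries as labelled, and values are also given by replicate number, which the titles state and whose meaning no label gives. Monocyte and myeloid markers were present, 9 of 9 tested, with a summed level of 2847 to 3242 CPM in the libraries numbered 2 and 2594 to 2855 CPM in those numbered 1. Of these 9, 4 were called higher in number 2 (LYZ, AZU1, CD33 and CD68, log2 fold changes of 0.29 to 0.52) and 3 lower (CD14, MPO and ITGAM, -0.72 to -0.65), by the test described below, which called 45.4% of all genes. The part of this in the receptors' differences was not tested. Among 5 T and NK cell markers CD3D and CD2 had 0 counts in every library, as did HBB and PF4 of 4 erythroid and megakaryocytic markers and TPSAB1 and CPA3 of 3 mast cell markers. The summed level of the 5 T and NK cell markers, nearly all of it NKG7, was 14.6 to 18.7 CPM in number 2 and 19.3 to 21.3 CPM in number 1. The 4 B cell markers summed to 4.61 to 6.65 CPM and 4.17 to 4.85 CPM, and the 4 epithelial and fibroblast markers to 0.984 to 1.73 CPM and 1.23 to 1.94 CPM, again with number 2 first. The erythroid and megakaryocytic markers summed to 0.479 to 0.577 CPM in number 2 and 0.478 to 0.743 CPM in number 1, and the mast cell and basophil markers to 0.984 to 1.81 CPM and 1.61 to 1.999 CPM.

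Per transcript length, in TPM, the 10 genes spanned from near absence to over 100. IL6R was highest, at 121 ± 11.1 TPM (SD, n = 6 libraries), followed by CSF1R at 90.0 ± 5.44 TPM and CSF3R at 61.8 ± 15.1 TPM, and the ranges of these 3 genes did not overlap. CSF2RA at 20.1 ± 5.81 TPM, IL6ST at 17.9 ± 11.8 TPM, CSF2RB at 16.1 ± 7.05 TPM and IL7R at 12.3 ± 1.92 TPM followed, and the ranges of neighbours in this order overlapped. IL3RA stood at 8.20 ± 1.46 TPM and FLT3 at 1.22 ± 0.58 TPM, each below its neighbour in all 6 libraries. Short processed transcripts held 18.9% to 40.7% of CSF2RA's TPM on 4.08% to 8.77% of its counts, and its coding forms alone summed to 18.8 ± 2.45 TPM in the libraries numbered 2 and 9.505 ± 1.45 TPM in those numbered 1 (SD, n = 3 each). IL6ST's coding forms alone summed to 12.46 ± 4.61 TPM in number 2 and 8.685 ± 2.61 TPM in number 1 (SD, n = 3 each). KIT was at the limit of detection. The libraries labelled ALKBH5 rescue held 0 KIT counts in number 2 and 1 in number 1, as did those labelled shALKBH5, and those labelled shCtrl held 1 in number 2 and 0 in number 1. A count of 0 allows up to 3 counts, which is 0.130 to 0.217 CPM in these libraries and covers counting error only. KIT was not tested.

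**Figure D1:**
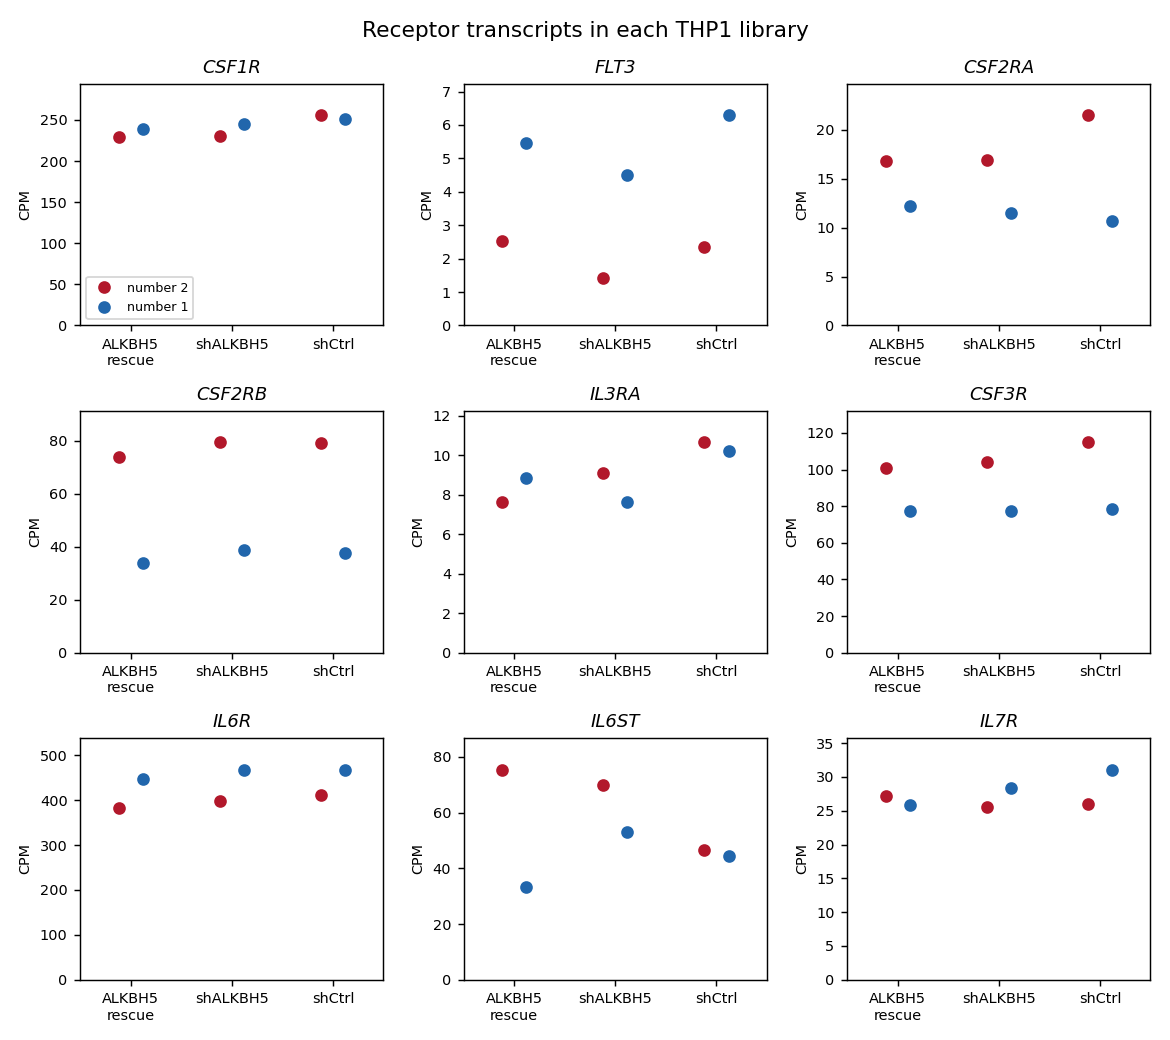
Level of each tested receptor gene in CPM (vertical axis, linear, from 0) in the libraries labelled ALKBH5 rescue, shALKBH5 and shCtrl. Each point is 1 library, red for number 2 and blue for number 1. CSF2RB, CSF2RA and CSF3R lie higher and FLT3 lower in number 2 under all 3 labels, while CSF1R lies between 229 and 256 CPM throughout.

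Between libraries of different replicate number, 4 of the 9 tested receptors were higher in number 2 (CSF2RB, CSF2RA, IL6ST and CSF3R) and 2 were lower (FLT3 and IL6R), by edgeR's quasi-likelihood test with group as a covariate and a Benjamini-Hochberg adjusted p under 0.05. The same test called 22.8% of all 14497 genes higher, 22.6% lower and 45.4% in either direction, so many genes differed between the numbers and the receptors' count is read against that share. The median log2 fold change of the 9 receptors was 0.03 and that of all genes tested 0.01. For 5 of the 9 the 3 libraries of one number did not overlap those of the other, where 57.7% of all genes showed no overlap. In RNA from whole cultures, fewer cells of a type and less RNA per cell cannot be told apart.

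Of the receptor tyrosine kinases, FLT3 was lower in number 2 and CSF1R was not called. CSF1R, the receptor for CSF1 and IL34, was at 229, 231 and 256 CPM in the number 2 libraries labelled ALKBH5 rescue, shALKBH5 and shCtrl, against 239, 245 and 251 CPM in the number 1 libraries in the same order. The numbers overlapped, and the log2 fold change of number 2 over number 1 was -0.04 (SE 0.08, 95% interval -0.21 to 0.13, edgeR adjusted p = 0.703). FLT3, the receptor for FLT3 ligand and a gene often mutated in acute myeloid leukaemia, was low in every library and lower in number 2. It had 2.52, 1.42 and 2.34 CPM in the number 2 libraries, against 5.47, 4.51 and 6.29 CPM in the number 1 libraries, under the labels in the same order. All 3 number 2 libraries lay below all 3 number 1 libraries, and the log2 fold change was -1.39 (SE 0.20, 95% interval -1.83 to -0.95, edgeR adjusted p = 5.06e-04). These FLT3 levels rest on 27 to 44 counts in number 2 and 79 to 126 in number 1.

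The receptors for GM-CSF were higher in number 2, while the specific chain for IL3 was not called. CSF2RB, the beta chain shared by the receptors for GM-CSF, IL3 and IL5, was at 73.9, 79.3 and 79.0 CPM in the number 2 libraries labelled ALKBH5 rescue, shALKBH5 and shCtrl, against 33.8, 38.6 and 37.6 CPM in the number 1 libraries in the same order. The numbers were far apart and the labels within a number close together, with a log2 fold change of 1.08 (SE 0.09, 95% interval 0.88 to 1.28, edgeR adjusted p = 2.95e-05). CSF2RB and FLT3 were the 2 receptors called with a change of at least 2-fold, which 7.85% of all genes showed. CSF2RA, the alpha chain that binds GM-CSF, had 16.8, 17.0 and 21.5 CPM in number 2, against 12.2, 11.5 and 10.6 CPM in number 1. Its log2 fold change was 0.67 (SE 0.14, 95% interval 0.36 to 0.98, edgeR adjusted p = 0.00374). IL3RA, the alpha chain that binds IL3, stayed between 7.60 and 10.6 CPM, the numbers overlapped, and its log2 fold change was 0.03 (SE 0.14, 95% interval -0.29 to 0.36, adjusted p = 0.869). CSF2RA and IL3RA lie in the pseudoautosomal region shared by the sex chromosomes, and their counts are those of the chromosome X entries. Reads from a copy on chromosome Y would share that sequence and cannot be told apart.

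CSF3R, the receptor for G-CSF that drives neutrophil production, was at 101, 104 and 115 CPM in the number 2 libraries labelled ALKBH5 rescue, shALKBH5 and shCtrl, against 77.5, 77.2 and 78.4 CPM in the number 1 libraries in the same order. Number 1 was tight, and each number 2 library lay above it. The log2 fold change was 0.45 (SE 0.08, 95% interval 0.27 to 0.64, edgeR adjusted p = 0.00193).

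The IL6 receptor chains were called in opposite directions, both less firmly. IL6R, which binds IL6, was at 383, 398 and 411 CPM in number 2, against 448, 468 and 468 CPM in number 1, with the labels in the same order. The numbers did not overlap, but the log2 fold change was only -0.22 (SE 0.08, 95% interval -0.39 to -0.04, edgeR adjusted p = 0.048), and the call was lost under each leave-one-out fit and under 3 other settings (adjusted p 0.0516 to 0.445). IL6ST, the shared signalling chain of the IL6 family, was at 75.5, 69.8 and 46.7 CPM in number 2, against 33.4, 53.0 and 44.4 CPM in number 1. Here the libraries overlapped. The log2 fold change of 0.55 (SE 0.17, 95% interval 0.16 to 0.94, edgeR adjusted p = 0.0272) came from 1.17 under the label ALKBH5 rescue, 0.40 under shALKBH5 and 0.07 under shCtrl. Without the library labelled ALKBH5 rescue replicate 1 it was 0.25 (adjusted p = 0.0315), and without that labelled ALKBH5 rescue replicate 2 likewise 0.25. With counts of protein-coding transcripts only it was 0.44 (adjusted p = 0.166), which ends the call. IL7R, the alpha chain of the IL7 receptor and best known from lymphocytes, was at 27.2, 25.6 and 26.0 CPM in number 2, against 25.8, 28.3 and 31.1 CPM in number 1. The numbers overlapped, and its log2 fold change was -0.11 (SE 0.11, 95% interval -0.36 to 0.14, adjusted p = 0.464).

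**Figure D2:**
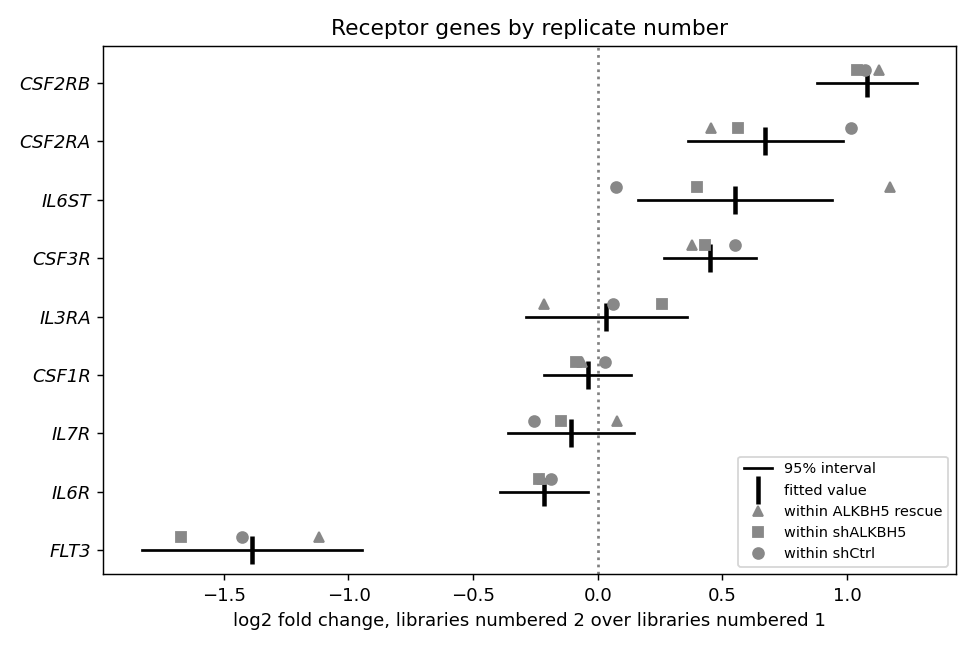
Log2 fold change of the libraries numbered 2 over those numbered 1 (horizontal axis) for each tested receptor gene. The black tick is the value fitted over 6 libraries, the line its 95% interval, and the grey triangle, square and circle are the differences within the labels ALKBH5 rescue, shALKBH5 and shCtrl. The 3 labels stay close for CSF2RB (1.13, 1.04 and 1.07) and spread widely for IL6ST (1.17, 0.40 and 0.07).

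Sequence upstream of a listed transcription start is shown for a receptor not called between the numbers (CSF1R) and for 3 that were called (CSF2RA, CSF3R and FLT3). It comes from RefSeq (GRCh38.p14), as the 250 bases before the start on the gene's own strand. Capitals mark GAGGAA on either strand (read as TTCCTC when it lies on the opposite one), the purine-rich core bound by PU.1, the product of SPI1 and a regulator of myeloid receptor genes. Of 34961 such promoters in the table, 23.6% hold the motif, and so do 6 of the 11 promoters listed for 9 of the receptors. CSF1R and CSF3R have 2 listed starts, and the downstream one is shown, which holds the motif while the upstream one does not. The annotated coding form CSF1R-201, with 77.25% of the gene's TPM on average, begins near the upstream start. So do the coding forms CSF3R-203 and CSF3R-205, while CSF3R-201 and CSF3R-202 begin downstream of both. The non-coding CSF3R-213 and CSF3R-214 begin near the start shown. Which start was used was not tested.
CSF1R, chr5:150086555-150086804, minus strand: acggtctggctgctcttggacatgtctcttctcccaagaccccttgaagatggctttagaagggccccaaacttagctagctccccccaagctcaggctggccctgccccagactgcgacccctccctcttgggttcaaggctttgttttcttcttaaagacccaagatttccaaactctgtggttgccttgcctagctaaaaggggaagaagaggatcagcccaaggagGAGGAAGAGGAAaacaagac
CSF2RA, chrX:1268564-1268813, plus strand: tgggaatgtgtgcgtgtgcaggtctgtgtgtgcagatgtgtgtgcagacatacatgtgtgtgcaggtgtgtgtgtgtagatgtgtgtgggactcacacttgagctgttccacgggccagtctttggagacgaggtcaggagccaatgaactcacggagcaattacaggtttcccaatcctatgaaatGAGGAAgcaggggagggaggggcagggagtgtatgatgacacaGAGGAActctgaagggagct
CSF3R, chr1:36482914-36483163, minus strand: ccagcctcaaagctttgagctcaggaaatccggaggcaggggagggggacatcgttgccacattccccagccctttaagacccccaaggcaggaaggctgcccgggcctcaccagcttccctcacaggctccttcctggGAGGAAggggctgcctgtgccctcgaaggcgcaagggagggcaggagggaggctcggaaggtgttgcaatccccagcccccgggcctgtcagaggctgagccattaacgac
FLT3, chr13:28100577-28100826, minus strand: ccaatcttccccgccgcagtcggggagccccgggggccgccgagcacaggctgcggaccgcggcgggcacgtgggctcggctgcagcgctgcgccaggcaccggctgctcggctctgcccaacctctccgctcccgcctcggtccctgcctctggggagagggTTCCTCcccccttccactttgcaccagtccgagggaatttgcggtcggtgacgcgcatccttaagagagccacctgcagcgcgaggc
The motif began 20 and 14 bases before the start in CSF1R, 63 and 20 bases before it in CSF2RA and 111 bases before it in CSF3R. In FLT3 it lay on the opposite strand, beginning 87 bases before the start. The promoters shown are all ones that hold the motif. The promoters of IL6R, called lower, and IL7R, not called, hold it too and are not shown. That of IL6ST, also called higher, has none, and neither have those of IL3RA and KIT. For CSF2RB, called higher, no promoter was listed. A match in these letters says nothing of binding.

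Along the labels no receptor passed. For ALKBH5 rescue against shALKBH5, edgeR called 0 of the 9 receptors and 0 of 14497 genes (0%), and likewise 0 (0%) with replicate number as a block. Before adjustment 43 genes lay below the 0.05 threshold without the block and 290 with it. For shALKBH5 against shCtrl it called 0 receptors and 0% of genes, against 0 receptors and 1 gene (0.0069%) once the block was added, and 38 and 347 genes lay below the threshold before adjustment. For ALKBH5 rescue against shCtrl it called 0 receptors and 0% of genes, against 0 receptors and 1 gene (0.0069%) with the block, and 46 and 239 genes lay below it before adjustment. DESeq2 and limma-voom, run without the block, called 0 genes in each of the 3 comparisons. The fit without the block counts the difference between the numbers as spread. Data for shALKBH5 against shCtrl were simulated from the blocked fit itself, on 14304 genes. There the fit without the block found 0% of the 2-fold and 14% of the 4-fold changes put in. With the block 80% and 99% were found, beside 14 unchanged genes. Data drawn from the blocked fit favour that fit, so these shares do not show which fit suits the real libraries. The comparisons share libraries, so their values are not independent.

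For ALKBH5 rescue against shALKBH5 the fitted log2 fold changes without the block ran from -0.18 for IL6ST to 0.44 for FLT3, with a median of -0.02 over the 9 receptors and 0.01 over all genes. For none of the 9 were the libraries of the labels apart, where 11.9% of all genes were. For IL6ST the ALKBH5 rescue libraries, numbers 2 and 1, held 75.5 and 33.4 CPM, against 69.8 and 53.0 CPM in those labelled shALKBH5. Number 2 gave a difference of 0.11 and number 1 of -0.66. FLT3 was at 2.52 and 5.47 CPM under ALKBH5 rescue, against 1.42 and 4.51 CPM under shALKBH5, and its log2 fold change was 0.44 (SE 0.74, edgeR adjusted p = 0.9998). Within numbers 2 and 1 it was 0.83 and 0.28.

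For shALKBH5 against shCtrl the values ran from -0.53 for FLT3 to 0.43 for IL6ST, with a median of -0.09 over the receptors and -0.03 over all genes. The labels did not overlap for CSF1R, IL3RA and IL6ST, 3 of 9, where 17.5% of all genes did not. For IL6ST the shALKBH5 libraries, numbers 2 and 1, held 69.8 and 53.0 CPM, against 46.7 and 44.4 CPM in those labelled shCtrl. Its log2 fold change was 0.43 (SE 0.39, edgeR adjusted p = 1), and it was 0.58 within number 2 and 0.26 within number 1. IL3RA had 9.08 and 7.60 CPM under the label shALKBH5, against 10.6 and 10.2 CPM in those labelled shCtrl, or -0.32 on the log2 scale (SE 0.24, edgeR adjusted p = 1). FLT3 had 1.42 and 4.51 CPM under the label shALKBH5, against 2.34 and 6.29 CPM in those labelled shCtrl. With the block its log2 fold change was -0.57 (95% interval -1.11 to -0.03, unadjusted p = 0.042, edgeR adjusted p = 0.978), which does not pass over all genes. CSF1R was at 231 and 245 CPM under shALKBH5, against 256 and 251 CPM under shCtrl, a log2 fold change of -0.09 (SE 0.15), and with the block its 95% interval was -0.30 to 0.12. For CSF2RB the block interval was -0.22 to 0.26 and for CSF3R -0.31 to 0.14. A 2-fold difference of these 3 genes lies outside their block intervals. Without the block the 95% intervals were -0.46 to 0.28 for CSF1R, -1.36 to 1.38 for CSF2RB and -0.77 to 0.58 for CSF3R. That of CSF2RB includes a 2-fold difference in either direction. For ALKBH5 rescue against shCtrl, CSF1R and IL3RA, 2 of 9, did not overlap, where 10.1% of all genes did not, and the receptors' median was -0.11 against -0.01 over all genes. CSF1R was at 229 and 239 CPM under ALKBH5 rescue and IL3RA at 7.63 and 8.86 CPM, both below the shCtrl libraries given above. The values over all 9 receptors ran from -0.34 for IL3RA to 0.26 for IL6ST.

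**Figure D3:**
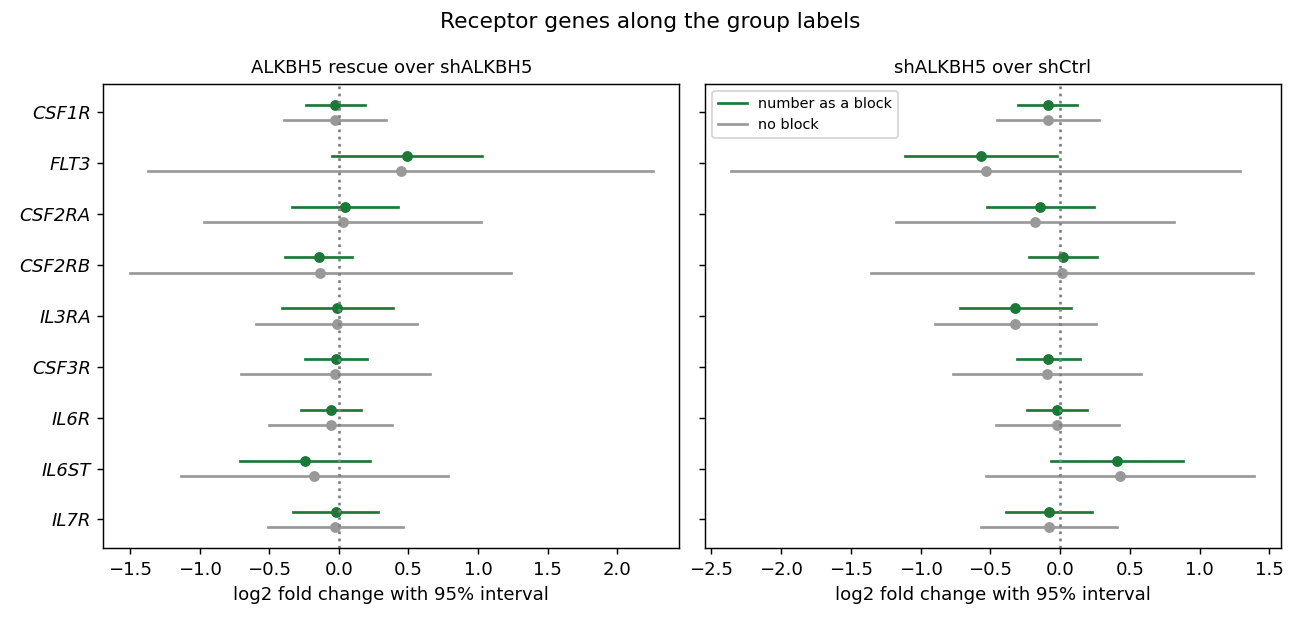
Log2 fold change with its 95% interval (horizontal axis) for each tested receptor gene between the labels, left for ALKBH5 rescue over shALKBH5 and right for shALKBH5 over shCtrl. Green is the fit with replicate number as a block and grey the fit without it. The grey intervals all cover 0, and of the green ones that of FLT3 on the right, from -1.11 to -0.03, does not.

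The transcript estimates show which forms of each receptor were counted. IL6R, IL7R and CSF2RA each have an annotated coding form that skips the exon encoding the transmembrane segment, and for each receptor a soluble protein made by such splicing is known. The skipped exon is shown in capitals within a membrane-bound form, followed by the junction that skipping creates, to show what the 2 proteins differ by there. The paired transcripts also differ in their ends (5914 bases for IL6R-202 and 3217 for IL6R-201, for example), so the estimates of the forms rest on more than this exon. The sequences are those of the GENCODE release 29 transcripts, and exon positions are on GRCh38, plus strand.
IL6R-202, exon at chr1:154454488-154454581: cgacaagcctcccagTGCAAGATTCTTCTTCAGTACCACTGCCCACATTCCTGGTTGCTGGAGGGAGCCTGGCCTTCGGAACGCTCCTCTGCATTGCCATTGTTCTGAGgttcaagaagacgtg
IL6R-201, exon skipped: cgacaagcctcccaggttcaagaagacgtg
IL7R-201, exon at chr5:35874449-35874542: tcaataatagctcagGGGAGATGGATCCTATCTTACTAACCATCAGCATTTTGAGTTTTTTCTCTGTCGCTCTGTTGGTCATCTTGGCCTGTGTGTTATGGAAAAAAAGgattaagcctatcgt
IL7R-204, exon skipped: tcaataatagctcaggattaagcctatcgt
CSF2RA-206, exon at chrX:1303923-1304019: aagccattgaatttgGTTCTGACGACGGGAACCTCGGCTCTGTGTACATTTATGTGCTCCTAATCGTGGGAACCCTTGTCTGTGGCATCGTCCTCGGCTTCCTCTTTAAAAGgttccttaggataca
CSF2RA-203, exon skipped: aagccattgaatttggttccttaggataca
The exon has 94 bases in IL6R, 94 in IL7R and 97 in CSF2RA, none a multiple of 3, so skipping also shifts the reading frame. The annotated protein length is 365 residues without it and 468 with it for IL6R, 261 and 459 for IL7R, and 333 and 400 for CSF2RA.

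For IL6R the skipping form held 8.68%, 8.17% and 11.7% of the summed TPM of both forms in the number 2 libraries labelled ALKBH5 rescue, shALKBH5 and shCtrl, against 11.3%, 17.9% and 14.6% in the number 1 libraries in the same order. Within each label the share was lower in number 2, but over the labels the ranges overlapped. These shares rest on 286 to 822 estimated counts of the skipping form. For IL7R the share was 15.5% to 29.3% in number 2 and 13.5% to 37.4% in number 1, on 10.9 to 44.1 counts, and for CSF2RA 10.3% to 24.2% and 15.0% to 18.3%, on 7.51 to 26.1 counts. The CSF2RA share sets CSF2RA-203 against CSF2RA-206 alone. CSF2RA-205 and CSF2RA-209 have the same coding length as CSF2RA-206, 1200 bases, and were left out. They held on average 8.26% and 3.20% of the gene's TPM, against 21.8% for CSF2RA-206 and 4.69% for CSF2RA-203. The values of both numbers overlapped for each gene, and with 3 libraries against 3 an exact two-sided permutation test cannot go below p = 0.1, so none was run.

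CSF3R was the receptor with the most transcript mass outside coding forms. Annotated retained-intron transcripts held 42.6%, 41.9% and 39.6% of its estimated counts in the number 2 libraries labelled ALKBH5 rescue, shALKBH5 and shCtrl, against 40.0%, 40.9% and 42.2% in the number 1 libraries in the same order. Coding transcripts held 50.2% to 51.4% in number 2 and 51.2% to 53.6% in number 1. In TPM, where short fragments weigh more, the coding share over the 6 libraries was 34.4% ± 1.26 (SD, n = 6). CSF3R's level of 61.8 TPM therefore counts non-coding forms, and its coding forms summed to 25.3 to 26.2 TPM in number 2 and 15.8 to 17.1 TPM in number 1.

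For CSF1R coding forms held 87.9% to 93.9% of counts and for IL6R 99.2% to 99.4%. In IL6ST the coding share was 83.9% to 91.1% in number 2 and 95.6% to 99.6% in number 1. An annotated nonsense-mediated decay transcript of IL6ST held 4.78%, 8.02% and 15.98% of counts in the number 2 libraries labelled ALKBH5 rescue, shALKBH5 and shCtrl, against 4.15%, 0% and 3.31% in the number 1 libraries in the same order. Short retained-intron fragments held 50.2% of IL6ST's TPM in the number 2 library labelled ALKBH5 rescue but 4.12% of its counts, so its TPM there is inflated by their length. In the number 2 library labelled shALKBH5, retained-intron and processed transcripts held 23.8% and 20.85% of TPM on 1.7% and 0.45% of counts. Processed transcripts held 20.8% of TPM on 0.30% of counts in the number 1 library labelled ALKBH5 rescue.

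**Figure D4:**
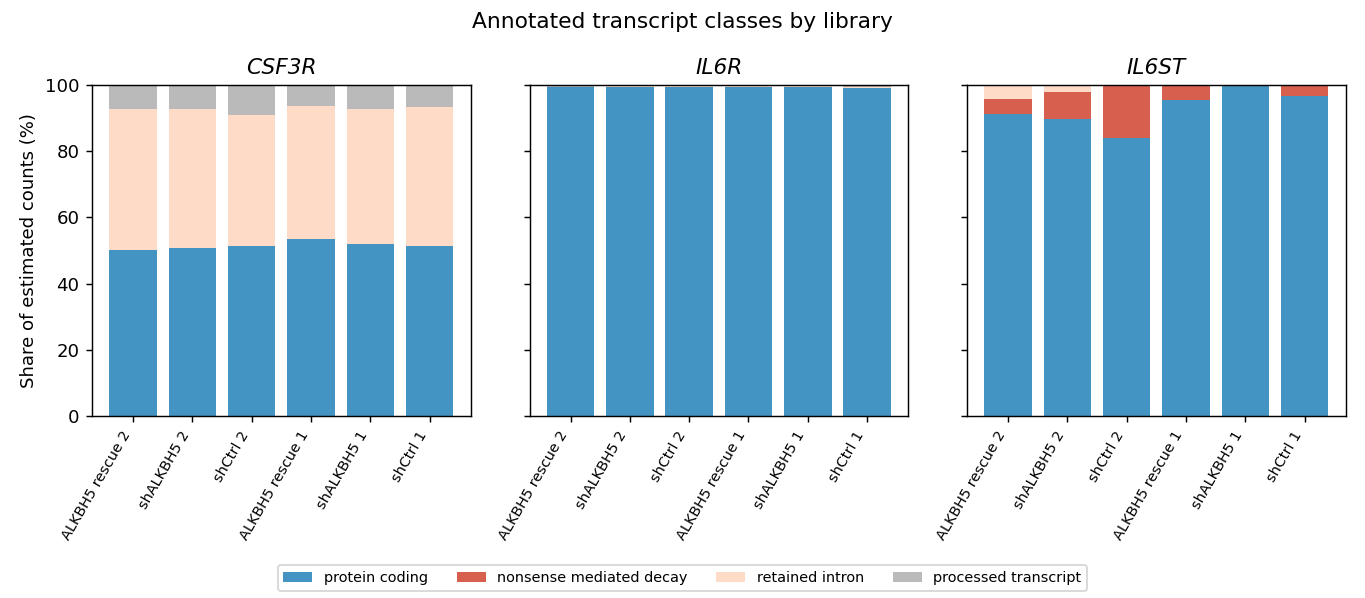
Share of each gene's estimated counts (vertical axis, percent) held by annotated transcript classes of CSF3R, IL6R and IL6ST, 1 bar per library, with the libraries numbered 2 left of those numbered 1. Retained-intron transcripts hold 39.6% to 42.6% of CSF3R in every library, while coding transcripts hold over 99% of IL6R.

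Of 11 listed ligands of these receptors, 4 had enough counts to be tested, and IL3, IL5 and IL34 had 0 counts in every library. IL6, the ligand of IL6R, was lower in number 2, at 3.75, 5.35 and 4.95 CPM under the labels ALKBH5 rescue, shALKBH5 and shCtrl, against 12.0, 11.9 and 12.7 CPM in number 1 (log2 fold change -1.39, SE 0.15, edgeR adjusted p = 1.30e-04). CSF1, the ligand of CSF1R, was higher in number 2 (log2 fold change 0.58, SE 0.17, edgeR adjusted p = 0.0174), at a mean of 6.05 CPM against 4.01 CPM in number 1. FLT3LG was at 0.36 (SE 0.18, adjusted p = 0.12) and KITLG at -0.35 (SE 0.19, adjusted p = 0.15). Thus 1 of 4 was called in each direction, where 22.8% of all genes were called higher and 22.6% lower, and the median of the 4 was 0.0040.

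Downstream of the receptors, 4 of 17 tested signal transducers were higher and 2 lower in number 2, with a median of 0.05, close to the 22.8% and 22.6% of all genes. JAK2, the kinase bound to CSF2RB, averaged 34.4 CPM in number 2 and 20.8 CPM in number 1 (log2 fold change 0.72, SE 0.18, edgeR adjusted p = 0.0102). SOS1, an activator of RAS, rose by 0.64 (SE 0.14, edgeR adjusted p = 0.00544), and FES, a tyrosine kinase of myeloid cells, was lower at -0.33 (SE 0.08, edgeR adjusted p = 0.00814).

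Among 13 tested inhibitors 2 were higher and 3 lower in number 2, with a median of 0.01, where 22.8% and 22.6% of all genes were. CISH, a feedback inhibitor induced by STAT5, was at 24.2, 24.5 and 25.9 CPM in number 2, against 56.9, 53.8 and 51.2 CPM in number 1 (log2 fold change -1.12, SE 0.10, edgeR adjusted p = 4.92e-05). SOCS3, which binds IL6ST and CSF3R and blocks their JAKs, was lower at -0.44 (SE 0.09, edgeR adjusted p = 0.00266), while PIAS1 and PIAS3, inhibitors of STAT factors, were higher at 0.43 (SE 0.09) and 0.37 (SE 0.09).

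Of 9 tested partner and related receptor chains 1 was higher and 2 were lower, with a median of -0.20, where 22.8% of all genes were higher and 22.6% lower. EPOR, the erythropoietin receptor, was at 0.78 (SE 0.15, edgeR adjusted p = 0.00231). PDGFRA, a receptor kinase related to KIT, was at -1.47 (SE 0.27, edgeR adjusted p = 0.00204). IL2RG, the chain that pairs with IL7R, was at -1.03 (SE 0.36, edgeR adjusted p = 0.0393), with under 2 CPM in every library, and IL27RA, a partner of IL6ST, was at -0.24 (SE 0.11) and not called. Both tested sheddases, which release receptor ectodomains from the cell surface, were higher in number 2 (median 0.41, with 22.8% of all genes called higher), ADAM17 at 0.49 (SE 0.10, edgeR adjusted p = 0.00301) and ADAM10 at 0.33 (SE 0.11, adjusted p = 0.035).

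Of 8 tested transcription factors that act on receptor genes, 1 was higher and 1 lower, where 22.8% and 22.6% of all genes were. RUNX1 was higher in number 2 at 0.37 (SE 0.09, edgeR adjusted p = 0.00895) and CEBPB lower at -0.55 (SE 0.15, adjusted p = 0.016), with a median of 0.02. SPI1 was at 401, 385 and 428 CPM in number 2, against 489, 428 and 432 CPM in number 1, which is -0.15 on the log2 scale (SE 0.09, edgeR adjusted p = 0.182), and CEBPA was at 0.18 (SE 0.09, adjusted p = 0.145). In none of these 6 lists was a gene called along the labels, with or without the block.

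As a description of pattern, the genes most like each receptor over the 6 libraries were sought by Pearson correlation of log2 CPM among 10589 other protein-coding genes. All points share the difference between the numbers, so high values are easily reached. CSF2RB was most like SATB1 and TMEM63A (r = 0.9995 and 0.9991), CSF2RA was most like TMEM173 and SIK3 (0.9995 and 0.9993) and CSF3R most like GIT1 and DHX8 (0.9985 and 0.9980). IL6ST was most like CASP8AP2 and TM9SF3 (0.9997 and 0.9982), CSF1R most like SLC37A2 and LLGL1 (0.9970 and 0.9969) and IL6R most like NEK6 and TSPYL4 (0.9974 and 0.9958). The nearest to IL3RA were YJEFN3 and ZNF473 (0.9950 and 0.9837) and to IL7R HIST2H4A and ZSCAN32 (0.9922 and 0.9699). HIST2H4A has a near-identical copy, so its own level is uncertain.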

How the data were processed

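RNA was measured in 6 THP1 libraries, 2 for each of 3 labels. Oligo-dT beads, random primers and PCR were used for the libraries, per the labels' protocols. The submitters' processing notes name CASAVA, kallisto 0.43.1 and hg38. The deposited tables give an estimated count and a TPM value for each of 179973 transcripts. For strand use the labels and notes give nothing, so reads from IL6R or IL6ST and their antisense partners cannot be told apart.

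Estimated counts were summed per gene with GENCODE release 29 (91.0% of transcripts matched, and 3.13% to 3.32% of counts per library were unmatched and left out) and rounded. edgeR 4.0.16 (R 4.3.3) was used with TMM scaling, filterByExpr, glmQLFit and glmQLFTest over all 6 libraries and Benjamini-Hochberg adjustment over 14497 genes. The label comparisons had 1 coefficient per group (3 residual degrees of freedom). Replicate number 2 against 1 had group and number (2 residual degrees of freedom), which is also the blocked fit. Same-numbered libraries deviated together (r = 0.60 to 0.73), with numbers from the titles. That is the difference between the numbers itself, and no label states a pairing. The label comparisons were therefore fitted without the block, and the blocked fit is given beside them. Standard errors were derived from the log2 fold change and its F statistic. On data simulated from the blocked fit itself, 87% of 2-fold changes between numbers were recovered over 14210 genes, with 23 unchanged genes called. Alternatives were RLE scaling, DESeq2 1.42.0, limma-voom (limma 3.58.1), other filters, coding transcripts only and leaving out each library.

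Receptors, lists and tests were chosen with earlier results of these data known. Named genes were the targeted gene, the receptors, up to 4 per list by smallest p for the numbers, and the 2 genes most like each receptor of at least 5 CPM (log2 CPM with a prior count of 2). A gene that this rule names is not reported here. Markers and ligands named for 0 counts were named after their values were seen.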

Additional observations from a re-analysis of the deposited data

How the results depend on the processing

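Between the numbers, the calls for CSF2RB, CSF2RA, CSF3R and FLT3 kept their direction and side of the threshold under RLE scaling, DESeq2, limma-voom, both other filters, coding transcripts only, no group term and each library left out. The IL6R call was lost with RLE scaling (-0.22, adjusted p = 0.0516), no filter (-0.18, adjusted p = 0.101), coding transcripts only (-0.18, adjusted p = 0.0638) and each leave-one-out fit (-0.22 to -0.19). For IL6ST, values without 1 library were 0.25 to 0.79. IL3RA ran from -0.078 to 0.17 without 1 library. The count of genes called between the numbers was 3915 to 6811 without 1 library, 3915 without the library labelled shALKBH5 replicate 1 and 4030 without that labelled shALKBH5 replicate 2.

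Along the labels, the replicate block gave 1 gene called, and no receptor, for shALKBH5 against shCtrl and 1 for ALKBH5 rescue against shCtrl, against 0 without it, and it changed no other call. No receptor was called under any of these alternatives. Leaving out 1 library unbalances the numbers, and uncalled values then changed sign. For ALKBH5 rescue against shALKBH5 the ranges were -0.065 to 0.018 for CSF1R, -0.23 to 0.34 for CSF2RA, -0.82 to 0.49 for CSF2RB, -0.24 to 0.21 for CSF3R, -0.22 to 1.499 for FLT3, -0.14 to 0.12 for IL3RA, -0.17 to 0.061 for IL6R, -0.89 to 0.30 for IL6ST and -0.093 to 0.048 for IL7R. For shALKBH5 against shCtrl they were -0.60 to 0.43 for CSF2RA, -0.60 to 0.66 for CSF2RB, -0.35 to 0.21 for CSF3R, -1.59 to 0.33 for FLT3, -0.14 to 0.087 for IL6R and -0.20 to 0.049 for IL7R. With coding transcripts only, CSF1R was at 0.033 and CSF3R at 0.0033 in ALKBH5 rescue against shALKBH5, and IL6R at 0.0022 in shALKBH5 against shCtrl, where no filter gave 0.0051. A group left with 1 library assumes that it varies like the others. Depth limits FLT3, with 27 to 126 counts per library, and the skipping forms of IL7R and CSF2RA, with at most 44.1.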

Other observations

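Of the ligands too low to test, CSF3, which encodes G-CSF, had 0, 0 and 1 estimated counts in the number 2 libraries labelled ALKBH5 rescue, shALKBH5 and shCtrl, against 8, 6 and 8 counts in the number 1 libraries in the same order, and it was named after these values were seen. TSLP, a ligand that uses IL7R together with CRLF2, had 8, 10 and 7 counts in number 2, against 1, 2 and 1 in number 1, and it too was named after its values were seen. CSF2, which encodes GM-CSF, had 0 to 5 counts per library.

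JAK2, SOS1 and ADAM10 had the same highest and the same lowest library as IL6ST. They were picked from the lists after the values were known. The share of all genes with this pattern was not counted, so it does not set these genes apart. JAK2 stood at 41.3, 38.8 and 23.0 CPM in the number 2 libraries labelled ALKBH5 rescue, shALKBH5 and shCtrl, against 16.3, 26.6 and 19.5 CPM in the number 1 libraries in the same order. SOS1 stood at 43.9, 43.5 and 30.9 CPM in number 2, against 21.4, 28.4 and 25.7 CPM in number 1. ADAM10 stood at 180, 168 and 133 CPM in number 2, against 114, 139 and 129 CPM in number 1. The number 2 library labelled ALKBH5 rescue was highest and the number 1 library so labelled lowest in each, and the cause was not tested.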
